A study of Drosophila melanogaster with 4 samples.

Results

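The histone gene repeat locus of Drosophila melanogaster lies near the centromere-side end of chromosome arm 2L and was examined here for clusters of H3K9me1, histone H3 monomethylated at lysine 9. The locus was taken as 2L from 21.35 to 21.65 Mb in FlyBase release 5 coordinates, chosen by position and not by any measured value. It was divided into 300 tiles of 1 kb, the first starting 1 base after the lower bound, of 119027 such tiles on the 5 large arms 2L, 2R, 3L, 3R and X. The 140 tiles from 21.41 to 21.55 Mb are called the array here, because the tandem histone genes lie at about that place. The 60 tiles between the start of the locus and the array form the telomere-side margin, and the 100 tiles after it form the centromere-side margin. Values were compared with 300 tiles on either side, the telomere-side flank from 21.05 to 21.35 Mb and the centromere-side flank from 21.65 to 21.95 Mb.

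The material was head nuclei from mixed adult flies of the wild-type strain Oregon-R-modENCODE, with no treatment named and no age or sex given in the labels. Per the labels, 2 ChIP libraries were made with an antibody marked H3K9me1 (new lot 2), and 2 input libraries carry the same replicate numbers. The values used were the authors' lists of enriched clusters, 1 list per ChIP replicate and 1 series list that combines them. Separate fly populations for each replicate are not named in the labels, and differences between replicates may therefore be technical. Whole heads hold neurons, glia and other cell types, and cluster lists carry no expression values, so the tissue label could not be checked against marker genes.

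Replication-dependent histone genes supply the histones that package new DNA, and their expression is coupled to DNA synthesis. In Drosophila melanogaster they sit in tandem units that each carry a gene for the linker histone H1 and for the core histones H2A, H2B, H3 and H4, and most cells of the adult head no longer divide. H3K9me1 is a methylation state that further methylation turns into H3K9me2 and H3K9me3, the states known for heterochromatin. The array encodes H3, a protein that can carry the mark, but not the H3 variants named below.

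The gene table used here, on release 6, lists 111 intact copies of these genes in 1 run on 2L, with 23 His1, 20 His2A, 23 His2B, 23 His3 and 22 His4 genes. The first of each type in the table's order are His1:CG33801, His2B:CG33910, His4:CG33909, His3:CG33803 and His2A:CG31618. The order His1, His2B, His2A, His4, His3 was complete in 19 units, and in 3 further units a His-Psi pseudogene stood in place of His2A. The run holds 8 His-Psi pseudogenes in all and 20 sncRNA:430 genes, and no other annotated gene lies within it. On the telomere side the nearest protein-coding genes are nrv3, which encodes a subunit of the sodium-potassium pump, then CG8665, Gr39b, a gustatory receptor gene, dtr and Tsp39D, a tetraspanin gene. On the centromere side they are Lamp1, a lysosomal membrane protein gene, nompB, which acts in the assembly of sensory cilia, then CG2201, Df31, whose product acts on chromatin structure, and Ac3, an adenylyl cyclase gene. The replication-independent histone genes lie elsewhere. His3.3A, on another part of 2L, and His3.3B, on X, encode the variant H3.3, and cid, on 2R, encodes the centromeric H3 variant. His2Av, for an H2A variant, His4r, for an H4 expressed outside replication, and BigH1, for a germline and early embryonic linker histone, lie on 3R. Positions in the table were not carried over to release 5, so no cluster below is assigned to a gene.

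The histone array carried no H3K9me1 cluster. None of its 140 tiles had a base under a cluster in replicate 1, in replicate 2 or in the series list. Coverage, the percent of bases under clusters, was thus 0% in each list. The tiles also held no region that the authors typed as depleted. Such regions were rare on the whole of 2L, with 1 in replicate 1, none in replicate 2 and 8 in the series list. Their absence therefore says little about the array. The tandem units are known to be near-identical in sequence. Whether reads could be placed in them, and so whether a cluster could have been called there, was not tested. Read depth is not known for any library, and a tile without a cluster is a tile without a call.

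Across the whole locus, clusters covered little sequence and all of it lay in the margins. Coverage of the locus was 5.22% in replicate 1 and 3.71% in replicate 2, a mean of 4.47 ± 1.07% (SD, n = 2), and 8.51% in the series list. The 2 flanks together were covered to 39.0% in replicate 1 and 35.8% in replicate 2, a mean of 37.4 ± 2.30% (SD, n = 2), and to 57.5% in the series list. The gap between locus and flanks was much wider than the spread between replicates, and the replicate values did not overlap. The ratio of locus to flanks was 0.134 in replicate 1 and 0.104 in replicate 2, a mean of 0.119 ± 0.0213 (SD, n = 2). No test was run, because regions of the same libraries are not replicates. The whole of 2L was covered to 33.9% and 29.7% in replicates 1 and 2.

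**Figure D1:**
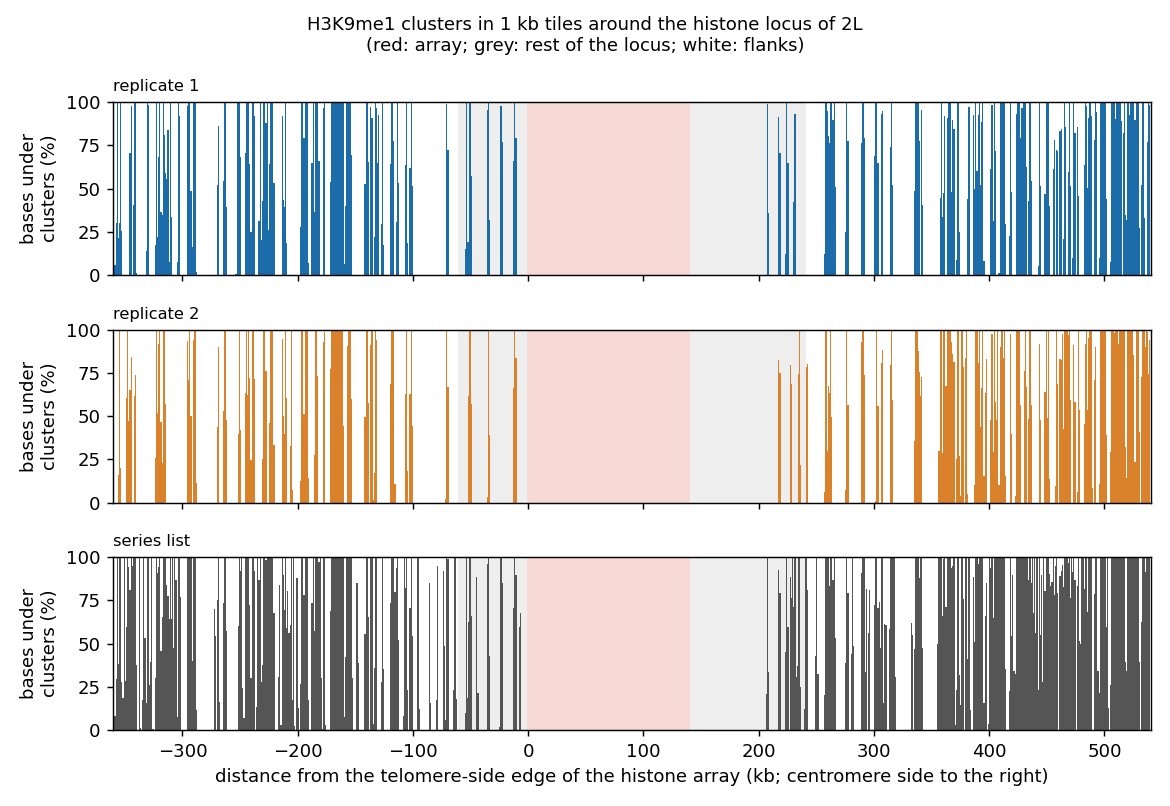
Percent of bases under H3K9me1 clusters (vertical axis) in each 1 kb tile, by distance in kb from the telomere-side edge of the array (horizontal axis), for replicate 1, replicate 2 and the series list. The array, in red, is empty in all 3 lists, and the grey margins hold 9, 6 and 15 clusters.

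Counts of tiles showed the same contrast. In replicate 1, 23 of the 300 locus tiles, or 7.67%, had at least 1 base under a cluster, against 46.3% of all tiles of the 5 arms. In replicate 2 the count was 16 tiles, or 5.33%, against 42.2% of all tiles. Both replicates touched 11 of the tiles, or 3.67%, against 36.2% of all tiles. The series list touched 38 tiles, or 12.7%, against 67.5%. With the stricter rule that at least 50% of a tile be covered, 16 tiles remained in replicate 1 and 13 in replicate 2, against 36.1% and 32.2% of all tiles. Tiles covered from end to end numbered 5 in replicate 1 and 4 in replicate 2, against 22.8% and 19.6% of all tiles. The telomere-side flank held 68 and 52 such tiles in replicates 1 and 2, and the centromere-side flank held 67 and 68. Of the 300 locus tiles, 272 were touched in neither replicate and 262 in no list, against 47.6% and 32.3% of all tiles. The telomere-side flank had 142 tiles touched in neither replicate and 85 in no list, and the centromere-side flank had 116 and 70. In the telomere-side flank 149 and 118 tiles were touched in replicates 1 and 2, and in the centromere-side flank 161 and 169. The locus counts include the 140 array tiles, none of them touched, where it was not tested whether a cluster could be called. In the telomere-side margin alone, 23.3%, 15% and 31.7% of the 60 tiles were touched in replicate 1, replicate 2 and the series list. In the centromere-side margin the shares were 9%, 7% and 19% of 100 tiles.

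The margins were themselves sparse, and unequally so. The telomere-side margin was covered to 16.0% in replicate 1 and 10.2% in replicate 2, a mean of 13.1 ± 4.09% (SD, n = 2). The centromere-side margin was covered to 6.09% and 5.02%, a mean of 5.55 ± 0.752% (SD, n = 2). In each replicate the telomere-side margin had the higher value. The order of the flanks was the other way round, at 32.6 ± 5.04% (SD, n = 2) on the telomere side and 42.2 ± 0.439% (SD, n = 2) on the centromere side. The margin-to-flank ratio was 0.396 ± 0.0642 (SD, n = 2) on the telomere side and 0.132 ± 0.0192 (SD, n = 2) on the centromere side. With the array tiles left out, a setting added after the data were seen, the locus was still covered to 0.223 ± 0.0399 (SD, n = 2) of the level of the flanks.

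Coverage was lower near the array than farther out on both sides, with unlike profiles. In bins of 50 kb on the centromere side, the bin next to the array was empty in both replicates. The next bins outward held 11.1 ± 1.50%, 19.2 ± 3.54%, 24.9 ± 3.05%, 39.0 ± 5.80%, 52.1 ± 0.817% and 47.4 ± 1.09% (SD, n = 2 each). The bin from 350 to 400 kb reached 70.9 ± 3.16%. On the telomere side the first 2 bins held 11.5 ± 3.61% and 7.55 ± 1.33%, and the third, from 100 to 150 kb, held 34.3 ± 6.68% (SD, n = 2 each). The fourth reached 55.9 ± 7.15%, and bins farther out ran between 25.9% and 51.2%. The centromere-side profile thus rose outward in all but the bin from 300 to 350 kb, while the telomere-side profile was low for 100 kb and uneven beyond.

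**Figure D2:**
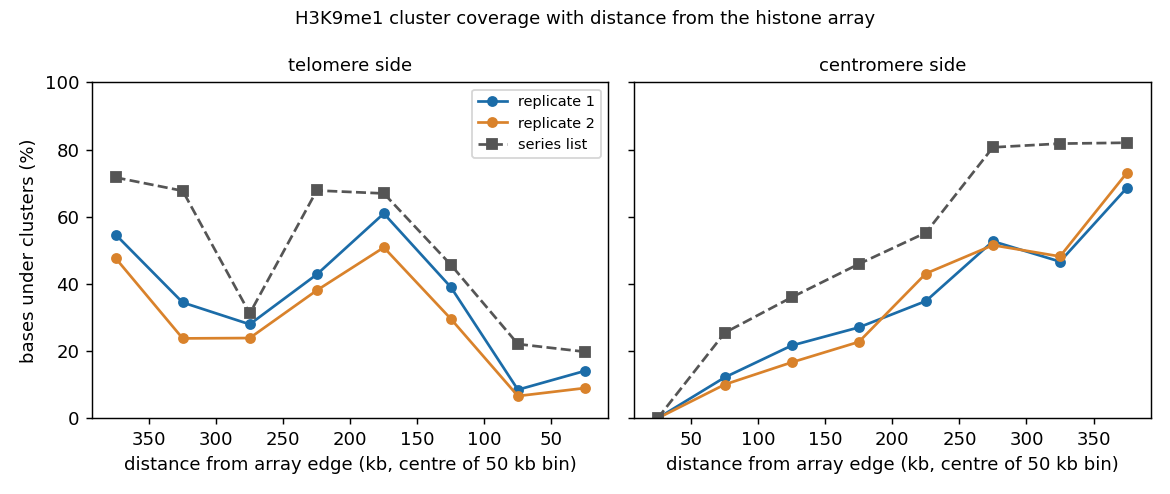
Percent of bases under clusters (vertical axis) in 50 kb bins by distance in kb from the nearer edge of the array (horizontal axis), with the telomere side on the left and the centromere side on the right. Points are single lists; the first centromere-side bin is at 0% in all 3, and the bin from 350 to 400 kb on that side reaches 68.6% and 73.1% in the replicates.

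The stretch without clusters was longer than the array and was not centred on it. In replicate 1 it ran from 21399794 to 21617013, 217.2 kb in all, and in replicate 2 from 21399838 to 21627174, 227.3 kb in all. Its telomere-side edge differed by 44 bp between the replicates, and its centromere-side edge by 10161 bp. The series list narrowed it to 21403677 to 21616790, or 213.1 kb. In that list it reached 6.32 kb beyond the array on the telomere side and 66.8 kb beyond it on the centromere side. The array's own edges are approximate, so these distances are too.

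Stretches free of clusters in both replicates were then compared along the 5 arms, a comparison chosen after the data were seen. There were 47 of at least 50 kb, and 9 were longer than the one over the array. All 9 lay nearer to the centromeric end of their assembled arm, at most 1.29 Mb from it, while the stretch over the array ended 1.39 Mb from the end of 2L. Of the 33 stretches farther from their arm's centromeric end, the longest was 160.4 kb, on 2R. In replicate 1 alone 9 stretches were longer than the one over the array, and all 9 lay nearer to the centromeric end. This order did not hold in replicate 2 alone. There 8 stretches were longer than the 227.3 kb over the array, and 2 of the 8 lay farther out. One was 264.6 kb long, on 3R, 12.5 Mb from the centromeric end, and the other was 251.6 kb long, on 2R, 2.14 Mb from it. On 2L the longest stretch on the telomere side of the array was 65.6 kb, at 16096206 to 16161805, so the stretch over the array was 3.31 times as long. Within single replicates the longest such stretch was 102.6 kb in replicate 1 and 80.1 kb in replicate 2, for ratios of 2.12 and 2.84.

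**Figure D3:**
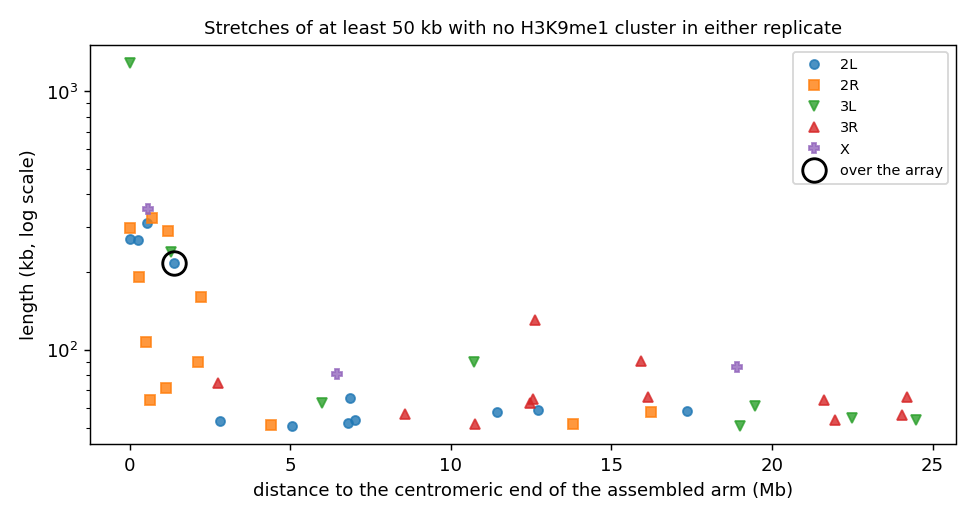
Length in kb, on a log scale (vertical axis), of each of the 47 stretches of at least 50 kb without a cluster in either replicate, by distance in Mb to the centromeric end of the assembled arm (horizontal axis). The circled stretch, over the array, is 217.2 kb long and lies 1.39 Mb from the end of 2L; the 9 longer stretches all lie nearer to their arm's end, whereas in replicate 2 alone, not drawn, 2 of 8 longer stretches lie farther out.

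Among 76 windows of 300 kb laid along 2L from the locus, the locus was one of the lowest. Median coverage of the windows was 34.5% in replicate 1 and 29.1% in replicate 2. In replicate 2 and in the series list 2 windows were lower, both on the centromere side, at 22250001 to 22550000 and 22550001 to 22850000. These held 0.539% and 0.446% in replicate 1 and no cluster in replicate 2. In replicate 1 a further window, at 15950001 to 16250000, was lower at 5.02%, but in replicate 2 it stood above the locus, at 5.79%. The order of these neighbours therefore changed between replicates. In the series list that window was covered to 16.0%, against 8.51% for the locus.

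**Figure D4:**
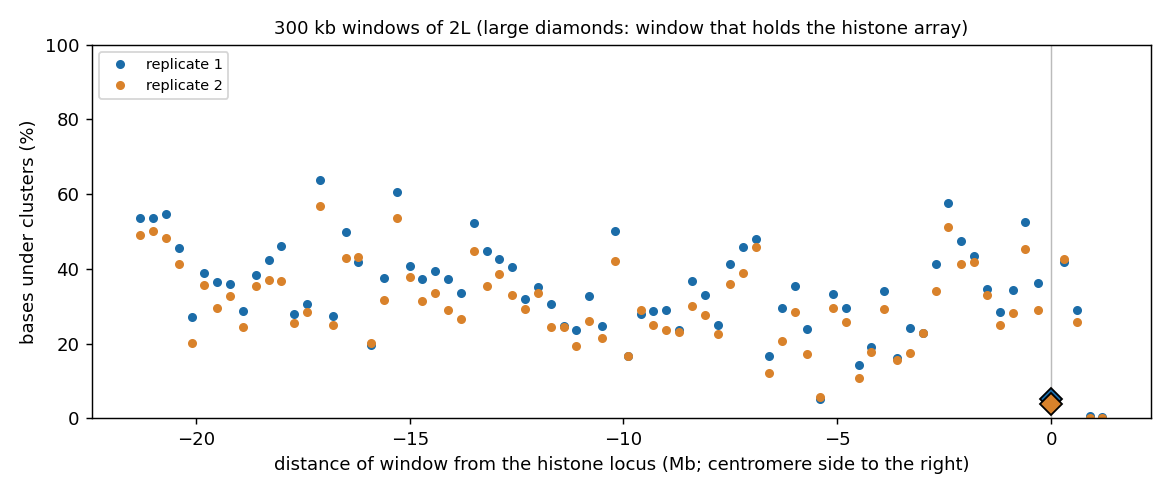
Percent of bases under clusters (vertical axis) in 76 windows of 300 kb of 2L, by distance in Mb from the histone locus (horizontal axis). The locus, drawn as diamonds at distance 0, is at 5.22% in replicate 1 and 3.71% in replicate 2, against medians of 34.5% and 29.1%; the lowest windows lie to its right.

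The clusters of the margins were few, and their median widths lay slightly below those of the flanks. Replicate 1 had 9 in the locus, from 1.34 to 2.46 kb wide with a median of 1.74 kb. Replicate 2 had 6, from 1.42 to 2.50 kb wide with a median of 1.77 kb. No list had a cluster of 5 kb or more there. In the flanks each replicate had 4 clusters of that width, among 96 in replicate 1 and 93 in replicate 2, and the medians were 1.99 and 1.89 kb. The whole of 2L had 248 of that width among 2869 in replicate 1 and 194 among 2680 in replicate 2. With so few clusters in the locus, their absence there does not set it apart. In the telomere-side margin alone the median width was 1.77 kb in replicate 1 and 2.19 kb in replicate 2.

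On the telomere side, 3 series clusters of the locus overlapped a cluster in each replicate. The one nearest to the array of these, at 21397293 to 21399894, had the highest score of the locus in every list, 0.619 in the series list, 0.692 in replicate 1 and 0.725 in replicate 2. The score is the authors' own value for each cluster, of a scale not given in the sources used here, and is compared only within a list. This cluster scored above 77.5% of the 2L clusters in replicate 1 and above 88.0% in replicate 2. Replicates 1 and 2 covered 94.4% and 96.0% of it. The cluster at 21358373 to 21360662 scored 0.552 and 0.593 in replicates 1 and 2, close to the 2L medians of 0.580 and 0.563. The cluster at 21374040 to 21376430 scored 0.559 in replicate 1 but 0.378 in replicate 2, where only 7.39% of 2L clusters scored lower.

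Replicate 1 had a pair of further clusters in that margin that replicate 2 lacked. The one at 21386026 to 21387768 scored 0.457, and 18.6% of the replicate 1 clusters of 2L scored lower. The other, at 21355848 to 21357191, scored 0.0693 and ranked 2867 of 2869 from the top. Both stood in the series list as well, with scores of 0.264 and 0.0318.

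The series list also held clusters on the telomere side with no base under a replicate cluster. One lay at 21402407 to 21403676 and was the cluster nearest to the array in any list, at 6.32 kb. Its score of 0.534 was the second highest of the locus in that list and ranked 25 of the 1285 series clusters of 2L that no replicate cluster touched, whose median was 0.352. The other lay at 21365117 to 21366216 and scored 0.355, near that median.

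On the centromere side only the cluster at 21627076 to 21628794 was found in both replicates. It scored 0.351 in replicate 1 and 0.299 in replicate 2, above 6.41% and 2.39% of the 2L clusters. Replicate 1 alone had clusters at 21617014 to 21618358, 21633880 to 21635651 and 21640579 to 21641929, which scored 0.372, 0.430 and 0.533. Replicate 2 alone had clusters at 21637206 to 21638687 and 21644258 to 21646219, which scored 0.277 and 0.529. No cluster of this margin reached the 2L median score of its replicate. The series list held 8 clusters there, with a median score of 0.208 and a highest score of 0.372. Of these, the cluster at 21638974 to 21640249 touched no replicate cluster and scored 0.0362, and the one at 21649877 to 21652809 crossed the edge of the locus and met only a replicate 2 cluster that began outside it.

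Median scores over the whole locus lay below those of the flanks in each list, on few clusters, but those of the telomere-side margin did not. The median was 0.457 in the locus and 0.545 in the flanks in replicate 1, 0.454 and 0.528 in replicate 2, and 0.349 and 0.373 in the series list. In the telomere-side margin alone it was 0.552, 0.593 and 0.387 in replicate 1, replicate 2 and the series list, each above the flanks. In the centromere-side margin it was 0.401, 0.299 and 0.208, each below them. Clusters with at least the 2L median score numbered 1 of 9 (11.1%) in the locus in replicate 1, 2 of 6 (33.3%) in replicate 2 and 3 of 15 (20%) in the series list. In the flanks they numbered 40 of 96 (41.7%), 36 of 93 (38.7%) and 50 of 128 (39.1%). The median splits the clusters of the whole of 2L evenly by definition. In replicate 2 the share in the locus was thus near that of the flanks. The spread within each region was wider than these differences in medians.

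**Figure D5:**
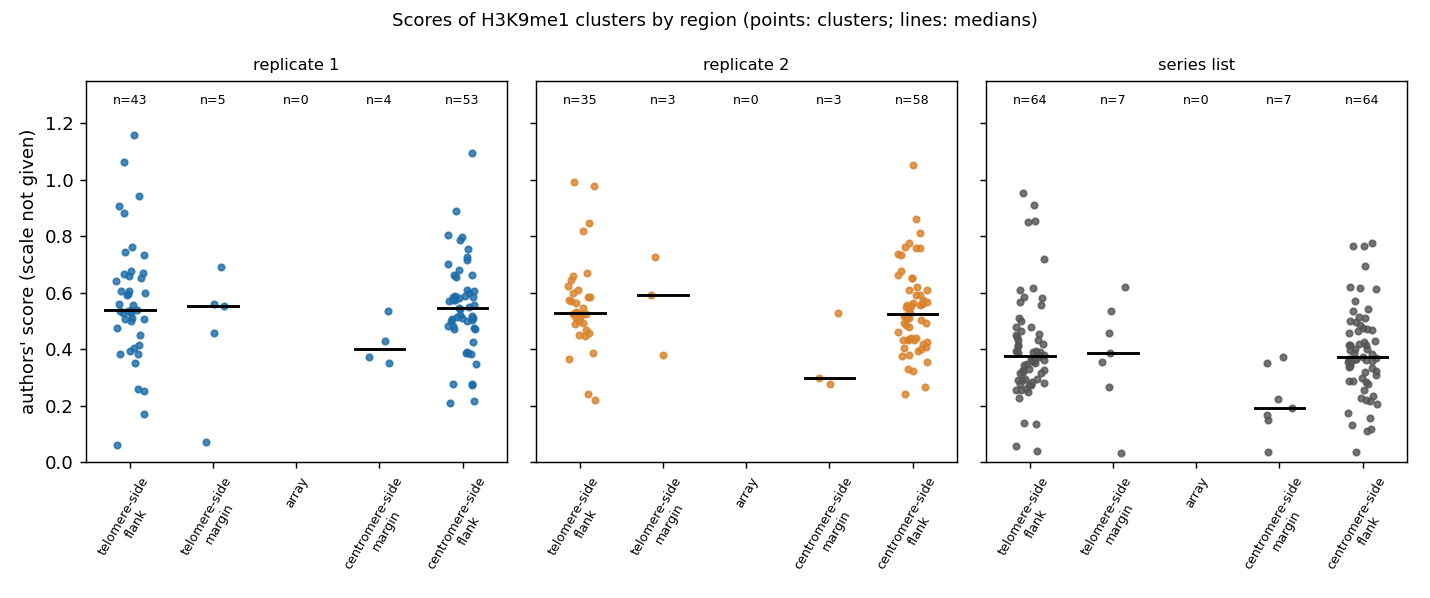
Authors' score of each cluster, on a scale not given (vertical axis), by region (horizontal axis) in each list; points are clusters placed by their centre and lines are medians. The array has no points, the telomere-side margin holds the cluster of 0.692 and 0.725 in replicates 1 and 2, and the centromere-side margin stays at or below 0.533.

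The replicates shared less of their covered sequence in the locus than around it. Of 19702 bases under a cluster of either replicate in the locus, 7101 were under both, a Jaccard index (bases under both divided by bases under at least 1) of 0.360. The index was 0.550 in the telomere-side margin and 0.160 in the centromere-side margin. It was 0.701 in the flanks and 0.638 over 2L. Lists that cover more sequence share more of it by position alone, and the index was not adjusted for coverage. Mean coverage was 4.47% in the locus and 37.4% in the flanks. Of the 25.5 kb under series clusters in the locus, 27.8% were also under clusters of both replicates, 48.8% under those of 1 replicate and 23.4% under none. In the flanks these shares were 53.7%, 21.7% and 24.6%. The locus values rest on 15 series clusters, 4 of them met by both replicates, 5 by replicate 1 only, 3 by replicate 2 only and 3 by neither. Of the 128 series clusters of the flanks, 68 were met by both replicates and 39 by neither. On the whole of 2L these were 1912 and 1285 of 4091.

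The flanks held wide series clusters that overlapped clusters of both replicates, to differing extents. On the telomere side the widest series cluster was 11.8 kb long, at 21238315 to 21250079. Next in width were those at 21182875 to 21189675, with 6.80 kb, and at 21251577 to 21257304, with 5.73 kb. A single cluster in each replicate met the widest. Replicate 1 covered 98.6% of the widest and replicate 2 covered 94.6%. It lay 159.9 kb from the array, and its score was 0.855 in the series list, 0.907 in replicate 1 and 0.819 in replicate 2. The next in width was covered to 81.1% in replicate 1 but 55.8% in replicate 2, and the third to 88.9% and 61.2%. On the centromere side the widest was 12.7 kb long, at 21915739 to 21928396, and replicate 1 covered 87.2% of it and replicate 2 covered 98.6%. It was met by 3 clusters of replicate 1 and 4 of replicate 2, and no replicate cluster of that flank was wider than 5.72 kb in replicate 1 or 6.00 kb in replicate 2. The others were 11.6 kb at 21832678 to 21844320 and 10.7 kb at 21929661 to 21940396, and the nearest of the 3 lay 282.7 kb from the array. The 11.6 kb cluster was covered to 80.0% in replicate 1 and 60.4% in replicate 2, and the 10.7 kb cluster to 97.0% and 89.7%.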

How the data were processed

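H3K9me1 ChIP-seq clusters came from the authors' 3 deposited GFF3 lists, on FlyBase release 5 per the file headers. Bowtie 0.12.7 is named as a tool, per the submitters' processing notes. How clusters were called, and how replicates were merged into the series list, is not given in the sources used here. Each deposited score is a signed value given by the authors to a region, above 0 in every enriched cluster, and its scale is not given. Read counts were not analysed here, so depth is unknown and no counting interval is given.

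Coverage was the percent of bases under enriched clusters, given per replicate and as mean ± SD (n = 2). The series list is the authors' pooled set, with no n. Tiles were 1 kb, and a tile counted when at least 1 base was covered. Named clusters were all those overlapping the locus and, in each flank, the 3 widest series clusters met by both replicates. The locus, the gene lists and the comparisons were chosen with earlier results of these data known. No hypothesis test was run. Coverage, tile and stretch routines were checked on simulated clusters. The gene table is RefSeq on release 6 and gave names and order only. Alternatives covered list, score, width, joining, tile and flank width, array extent and each replicate. Software was Python 3.11.15 with NumPy 2.4.6 and Matplotlib 3.10.9.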

Additional observations from a re-analysis of the deposited data

Results flagged for a closer look

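The series list holds a region typed as depleted at 21279469 to 21280931, in the telomere-side flank, with an authors' score of -0.0453. It stood out because such regions were only counted above and enter none of the coverage, tile or stretch comparisons. A replicate 1 cluster typed as enriched, at 21279354 to 21280925, covers 99.6% of it with a score of 0.0619, the lowest of all replicate 1 clusters of 2L, and replicate 2 has no cluster there. The cause was not tested.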

How the results depend on the processing

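The array had 0% coverage under every alternative run, with the series list, each replicate alone, the higher-scoring clusters or joined clusters. As a replicate mean it was also 0% with the array taken as 21.40 to 21.56 Mb or as 21.42 to 21.54 Mb. The series list was not run with these bounds. Its cluster at 21402407 to 21403676 lies inside the wider bounds, which are therefore not empty in that list. The locus stayed below the flanks in every setting for which their ratio was computed, but the values moved. In the series list, locus coverage was 8.51%, flank coverage 57.5%, their ratio 0.148 and the share of tiles touched 12.7%. With only the higher-scoring clusters, at or above their list's median, these were 1.19%, 15.8%, 0.0759 and 1.5%, the stretch over the array grew to 324.4 kb, and the Jaccard index rose to 0.523. That threshold leaves fewer clusters by construction. In the locus it leaves 1 in replicate 1 and 2 in replicate 2, so the index of 0.523 rests on these alone. With clusters of at least 2 kb, locus coverage was 1.57% and the ratio 0.0649. Flanks of 100 kb and 150 kb were covered to 22.6% and 29.8%, with ratios of 0.197 and 0.149. Leaving the array out of the locus gave a ratio of 0.223. Under the 50% rule 4.83% of tiles were covered, and 16.7% of 5 kb tiles were touched, against 6.5% of 1 kb tiles. With each replicate left out, locus coverage ran from 3.71% to 5.22%, the ratio from 0.104 to 0.134 and the stretch from 217.2 kb to 227.3 kb. Apart from the number of clusters that a threshold sets, their cause was not tested. The longest stretch lying farther from a centromeric end than the one over the array, a setting added after the data were seen, was 160.4 kb in both replicates together and in replicate 1 alone, 160.1 kb in the series list and 264.6 kb in replicate 2 alone. With 2 replicates, a mean cannot move by more than their SD when 1 is left out. No paired analysis was possible because the inputs gave no values of their own. Unknown depth, and the unknown share of the array where reads could be placed, limit every statement on tiles without clusters.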
